A study of Homo sapiens with 10 samples.

Results

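Protein p53 is a stress-activated transcription factor, and 34 of its established target genes were followed here through 10 RNA-seq libraries of TPC-1 cells. The genes were chosen by symbol, and all 34 were found among the 58735 genes of the deposited count tables. The TPC-1 line was established from a human papillary thyroid carcinoma and has a RET/PTC1 fusion. The cells carried either an empty vector (EV, 5 libraries) or a vector overexpressing the long non-coding RNA PTCSC3-AS1 (OE, 5 libraries), and no other treatment or time is given in the labels. Replicates 1 to 3 of each group are in 1 table, called the first set below, and replicates 4 and 5 are in another, called the second set. The header of the first table names the OE columns EST_OE and that of the second names them OE, and the labels do not state whether the vector was the same.

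In resting cells the ubiquitin ligase MDM2 keeps p53 low. After DNA damage or other stress p53 is stabilised and binds response elements near its targets, which stop the cell cycle (CDKN1A, BTG2, GADD45A), repair DNA (DDB2, XPC, POLH, RRM2B), prepare apoptosis (BAX, BBC3, FAS, TNFRSF10B) and change metabolism (the sestrins, TIGAR). Several targets, MDM2 and the phosphatase PPM1D among them, act back on p53 and close its response. The p21 protein made from CDKN1A also leads to repression of cell cycle genes through the DREAM complex.

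The libraries held 15761474 to 18066559 counts. Of the 34 targets, 33 passed the filter on low counts, and SPATA18, a gene of mitochondrial quality control, had at most 2 counts in any library and was not tested. Levels are given in CPM, counts scaled to the size of the library with TMM factors, and a library with 0 counts of a gene still allows 0.166 to 0.190 CPM of it, by counting error only. The tables list no gene under the name PTCSC3-AS1, so the OE labels could not be checked against its level. EV replicate 2 stood apart from the other EV libraries, with a chi-square of 38.2 to 53.1 for each degree of freedom over genes with at least 20 counts, against 4.30 to 29.8 for any other 2 libraries of a group. Whether replicates are separate cultures is not stated, and the p-values below rest on the spread among the libraries at hand, part of which may be technical. In bulk RNA, fewer cells that express a gene and less RNA per cell cannot be told apart. Of the 12 thyroid and epithelial markers listed, 4 were tested, while NKX2-1, SLC5A5 and TSHR were at 0 in all libraries. The summed level of that list was 713 to 852 CPM in EV and 826 to 875 CPM in OE libraries. Summed markers of other cell types were 6.60 to 9.97 CPM for fibroblasts (8 genes, COL1A2, COL3A1 and DCN at 0), 0.675 to 2.32 CPM for leukocytes (10 genes, CD3E, CD8A and MS4A1 among those at 0) and 0.534 to 1.45 CPM for endothelium (5 genes, KDR at 0). Another gene lies on the opposite strand of 17 of the 34 targets, and since strand-specific counting is not stated, reads of overlapping exons cannot be assigned to a strand.

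Per length of the gene model, the most abundant target RNAs were those of CDKN1A, the inhibitor of cyclin-dependent kinases p21, with 97.2 ± 23.2 CPM per kb (mean ± SD over 10 libraries), GDF15, a secreted stress cytokine, with 97.0 ± 26.6 and PLK2, a polo-like kinase, with 94.4 ± 9.33. These 3 levels differed by less than their spread over libraries. TNFRSF10B, a receptor for the death ligand TRAIL, followed with 79.0 ± 6.38 CPM per kb, the pore-forming apoptosis effector BAX with 60.7 ± 10.04 and PHLDA3, an inhibitor of AKT, with 56.9 ± 9.49. The lowest tested levels were those of ACER2, an alkaline ceramidase, with 1.597 ± 0.470 CPM per kb and of TIGAR, a regulator of glycolysis, with 0.396 ± 0.187. The abundant targets differed in how far they ranged over the libraries. GDF15 ranged 2.44-fold from its lowest to its highest library and CDKN1A 2.14-fold, against 1.26-fold for TNFRSF10B and 1.29-fold for PLK2. The widest ranges were 3.70-fold for BTG2, an antiproliferative co-regulator of transcription, 3.52-fold for TIGAR, which had few reads, and 3.09-fold for GADD45A, a sensor of growth arrest and DNA damage.

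Binding sites of p53 are pairs of adjoining 10-base half-sites. The p53 response element consensus, which is palindromic and so reads the same on both strands, was searched in RefSeq promoter windows of build GRCh38.p14, from 250 bases before to 50 bases after the gene's start. The C and the G in the core of each half-site had to match, and up to 4 mismatches were allowed elsewhere, a limit chosen after the counts had been seen. Windows of 27 of the 34 targets were found in the table, and the other 7 targets were FBXO22, GADD45A, PHLDA3, RRM2B, TNFRSF10B, TNFRSF10D and TP53INP1. Only the first listed window of each gene was searched, so other starts were not covered. For 21 of the 27, the 30 bases after the start were found in an annotated transcript of the gene. A match stood in 5 of these 27 windows (18.5%), against 1102 of all 27305 windows (4.04%). With at most 3 mismatches the shares were 11.1% and 1.05%. The matches are shown as the stretches of these windows closest to the consensus, with the fixed core C and G of each half-site in capitals. They lie in AEN, an apoptosis-enhancing nuclease (chr15:88621306-88621325, plus strand, -34 to -15 from the start, 2 mismatches), FDXR, the mitochondrial ferredoxin reductase (chr17:74872996-74873015, minus strand, -21 to -2, 3 mismatches), GDF15 (chr19:18386186-18386205, plus strand, 29 to 48, 3 mismatches), TRIAP1, an inhibitor of apoptosis (chr12:120446337-120446356, minus strand, 29 to 48, 4 mismatches), and ZMAT3, an RNA-binding zinc finger protein (chr3:179071873-179071892, minus strand, -83 to -64, 4 mismatches).
AEN: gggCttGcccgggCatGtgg
FDXR: gggCagGagcgggCttGccc
GDF15: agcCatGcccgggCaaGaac
TRIAP1: aggCatGcacggaCatGaag
ZMAT3: gggCctGctccgcCaaGcac
A match is a description of letters and no evidence of binding in these cells. The other windows, those of CDKN1A and MDM2 among them, held no match within these bases.

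Across the 10 libraries the targets stood high in the EV libraries of the first set and low in both replicates 4. For each target, the mean over the 10 libraries was subtracted from log2 CPM (prior count 2), and the median of this deviation was taken over the 33 targets. It was 0.28, 0.19 and 0.21 in EV replicates 1 to 3, with 33, 27 and 29 of 33 targets above their mean. In OE replicates 1 to 3 it was 0.0082, -0.02 and 0.04, with 17, 15 and 18 targets above. In replicate 4 it was -0.44 in EV and -0.37 in OE cells, with 3 and 1 targets above. In replicate 5 it was -0.08 in EV and -0.01 in OE cells, with 10 and 16 targets above. The same median over all 14217 tested genes was 0.0031 to 0.0126 in the 10 libraries.

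**Figure D1:**
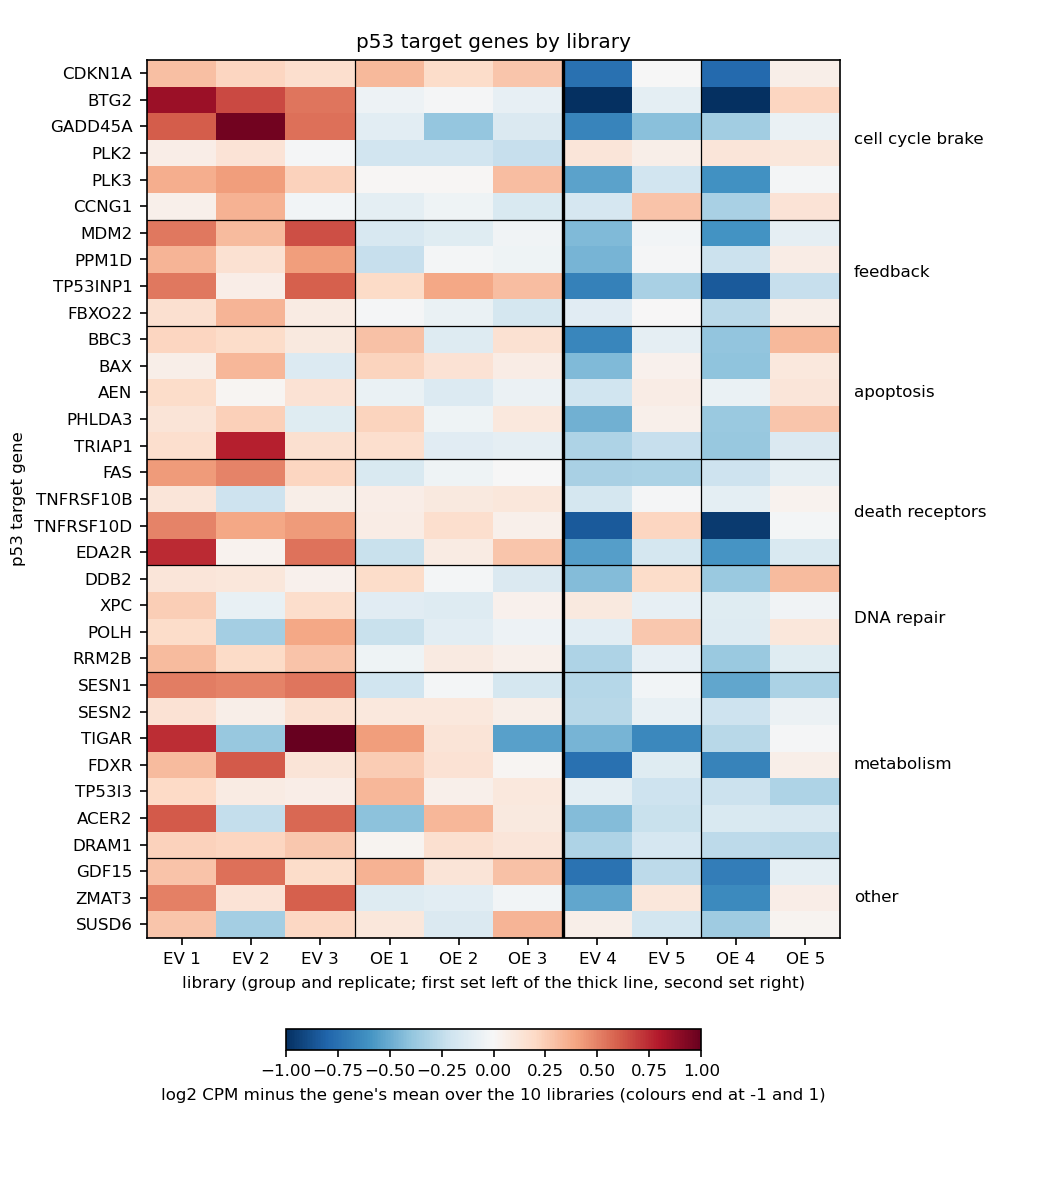
Deviation of each of the 33 tested p53 target genes (rows, grouped by role) from its mean log2 CPM over the 10 libraries (columns, EV and OE replicates, the first set left of the thick line). Red marks a level above and blue below the mean, with colours ending at -1 and 1; EV replicate 1 is above the mean for all 33 genes, and OE replicate 4 for 1.

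With both sets fitted together, the edgeR quasi-likelihood test called 0 of the 33 targets changed between OE and EV cells at an adjusted p under 0.05, as it did for 0 of all 14217 genes (0%). At an unadjusted p under 0.05, 5 targets were lower in OE cells and 0 higher, beside 2.53% and 3.18% of all genes. These were SESN1, MDM2, ZMAT3, GADD45A and PLK2. Below 0 stood 27 of the 33 log2 changes, and their median was -0.15, against -0.0028 over all genes. For all 33 targets the 95% interval stayed inside a 2-fold change, and for 24 inside a 1.5-fold change. Of all 14217 genes, 12985 and 10764 had such intervals. In the fit of the first set alone 30 and 21 targets had them, and in that of the second set 29 and 17. Over both sets DESeq2 called 1 target, SESN1, and limma-voom 0, while edgeR without the filter on low counts called 2, GADD45A and MDM2. DESeq2 and the unfiltered fit also called genes outside the targets. With each library left out in turn edgeR called 0. For each of the 33 targets, the CPM of the 5 OE and the 5 EV libraries overlapped, beside 0.253% of all genes with higher and 0.295% with lower OE levels that did not.

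Within the first set, edgeR called 0 of 33 targets, beside 0.0349% of all 14340 genes tested there. At an unadjusted p under 0.05, 13 targets were lower in OE cells and 0 higher, against 4.47% and 4.37% of all genes. The CPM of all 3 OE libraries lay below those of all 3 EV libraries for 14 of the 33 targets (42.4%), beside 7.85% of all genes, and above them for 0, beside 9.14%. The median change of the targets was -0.24, against -0.01 over all genes. DESeq2 called 5 targets lower (GADD45A, BTG2, SESN1, MDM2 and FAS), and limma-voom 0. The edgeR fit without the low-count filter also called 5 (ZMAT3 in place of FAS). DESeq2 and this fit also called more of all genes than the 5 of the main edgeR fit. Without EV replicate 2 the edgeR test called 14 of the targets and 1578 genes in all, and without any other single library it called 0 targets. The share of counts from mitochondrial ribosomal RNA differed between the same libraries, with 0.622% to 0.712% in EV and 0.512% to 0.527% in OE replicates 1 to 3, and its part in the result was not tested. Thyroid, epithelial and fibroblast markers had changes above 0 in the same comparison, with 0 called. These were all 5 tested thyroid and epithelial genes, with a median of 0.27, and both tested fibroblast genes. TG, among these 5, passed the filter in the first-set fit only. It had a low level (mean log2 CPM -0.137) and a change of 0.85 (SE 0.49). The leukocyte gene CD14 had 0.31 (SE 0.55) and the endothelial gene PECAM1 -0.41 (SE 0.44). The thyroid transcription factor PAX8 had 0.27 (SE 0.08) and the collagen COL1A1 0.76 (SE 0.22). Their part in the result was not tested either.

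Within the second set, with 2 libraries per group, edgeR, DESeq2 and limma-voom each called 0 of 33 targets, and edgeR called 0% of 14419 genes. At an unadjusted p under 0.05, 1 target, GADD45A, was higher in OE cells and 0 lower, against 0.589% and 0.506% of all genes. Of the 33 changes 20 were above 0, with a median of 0.03 against 0.0025 over all genes. OE levels did not overlap EV levels for 4 higher targets (ACER2, FAS, GADD45A and TIGAR; 12.1%, beside 12.3% of all genes) and 2 lower targets (SESN1 and TP53I3; 6.06%, beside 12.7%). The difference of the OE change between the sets was tested by an interaction term, positive where the change was more positive in the second set. It was above 0 for 28 of 33 targets, with a median of 0.24 against -0.0064 over all genes. At an unadjusted p under 0.05 stood 6 targets, all above 0, beside 1.97% of all genes in that direction, and 0 passed the adjustment, beside 0.00703%. DESeq2 called 1 target, GADD45A, limma-voom 0, and the edgeR fit without the low-count filter 2, GADD45A and BTG2. Genes outside the targets were also called by DESeq2 and by the unfiltered fit. The comparisons of OE with EV over both sets and by interaction are made from the libraries of the comparisons within each set and are no separate evidence.

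**Figure D2:**
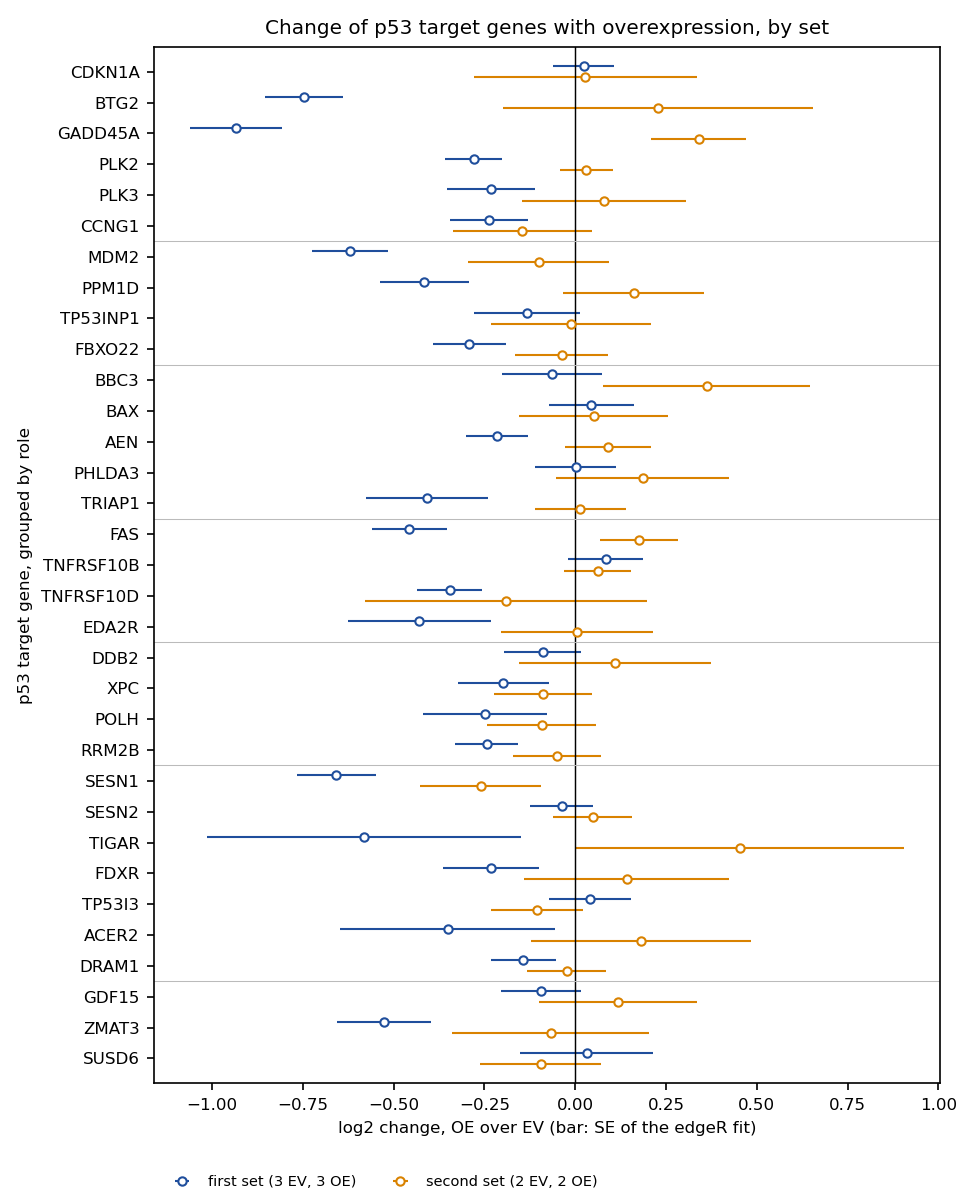
Log2 change, OE over EV, of each tested p53 target gene in the first set (blue, 3 libraries per group) and in the second set (orange, 2 per group), with the standard error of the edgeR fit as a bar. In the first set 27 of 33 points lie below 0, in the second set 13, and the change of GADD45A is -0.93 in the first and 0.34 in the second.

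More targets were called between the sets than between the vectors. In a fit with terms for set and vector, 15 of the 33 targets were called lower in the second set than in the first and 0 higher, beside 9.17% and 9.27% of all 14217 genes. Of the 33 changes 31 were below 0, with a median of -0.38 against -0.0012 over all genes. Every library of the second set lay below every library of the first for 9 targets (27.3%), beside 7.88% of all genes, and above every one for 0, beside 8.68%. The fit shares its set term between the vectors. For the called targets FAS, MDM2, EDA2R and FDXR, OE levels of the sets overlapped and EV levels did not. The labels do not state what separates the sets, and a day, a culture, a vector or a run cannot be told apart from the set. The count of 15 became 6 without EV replicate 4 and 8 without OE replicate 4. It was 12 to 20 with the other libraries left out in turn. Over all genes the count went from 2621 to 1312 without EV replicate 4 and to 3850 without EV replicate 2.

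Within the second set, replicate 5 was compared with replicate 4 over both vectors. Each number has 1 EV and 1 OE library, and the spread behind the p-values is shared over all 10 libraries. Whether the EV and the OE library of a number are independent is not stated. Both replicates 5 lay above both replicates 4 for 23 of 33 targets, beside 25.9% of all genes, and below them for 1, PLK2, beside 26.4%. Of the 33 log2 changes 30 were above 0, with a median of 0.31 against -0.0016 over all genes. The edgeR test called 3 targets higher in replicate 5 (CDKN1A, TNFRSF10D and DDB2) and 0 lower, beside 0.281% and 0.471% of all genes. At an unadjusted p under 0.05 stood 15 targets, all higher in replicate 5, beside 4.88% of all genes, and 0 lower, beside 5.18%. Over all genes edgeR called 107, and 560 without EV replicate 2. DESeq2 and the fit without the low-count filter called more genes in all, with 10 and 11 targets. The count became 1 without OE replicate 4 and 13 without EV replicate 2. The share of mitochondrial ribosomal RNA was 0.839% in EV replicate 4, 0.772% in OE replicate 4, 0.651% in EV replicate 5 and 0.612% in OE replicate 5, and its part in the result was not tested. Of the 4 tested thyroid and epithelial markers 1, the keratin KRT8, was called lower in replicate 5 (-0.74, SE 0.12, adjusted p = 0.0140), and its part in the result was not tested. The 4 markers did not change together, with 2 changes above 0 and 2 below (-0.74 to 0.19). What a replicate number stands for is not given in the labels.

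**Figure D3:**
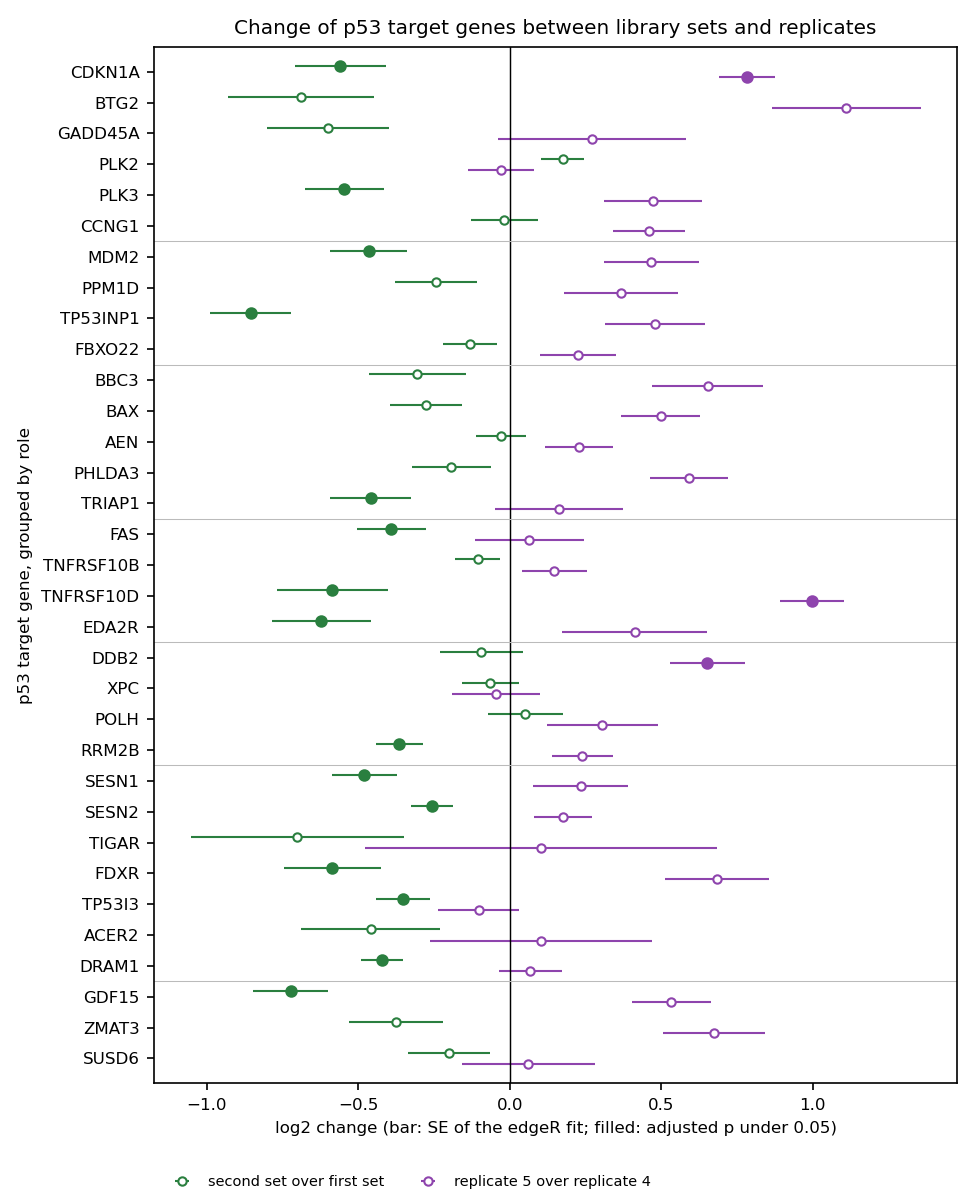
Log2 change of each tested p53 target gene between the sets (green, second over first) and between replicates 5 and 4 of the second set (purple), with the standard error of the edgeR fit as a bar and filled points where the adjusted p is under 0.05. Of the green points 31 of 33 lie below 0 and 15 are filled, and of the purple points 30 lie above 0 and 3 are filled.

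Among the 6 targets that brake the cell cycle, CDKN1A had a log2 change near 0 with OE and was called with set and with replicate. It had 354, 333 and 322 CPM in EV replicates 1 to 3 and 359, 325 and 347 CPM in OE replicates 1 to 3. Its levels in the second set were 171 and 286 CPM in EV replicates 4 and 5 and 168 and 298 CPM in OE replicates 4 and 5. The groups overlapped in each set, and both replicates 4 stood far below the other 8 libraries. The log2 change with OE was 0.03 (SE 0.14) over both sets, with a 95% interval of -0.28 to 0.34, 0.02 in the first set and 0.03 in the second. CDKN1A was lower in the second set by the edgeR test (-0.56, SE 0.15, adjusted p = 0.0196), but the adjusted p was 0.0784 when EV replicate 4 was left out and 0.0600 when OE replicate 4 was. It was higher in replicate 5 than in replicate 4 (0.78, SE 0.09, adjusted p = 0.00150), with an adjusted p of 0.0615 without OE replicate 4.

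GADD45A (ENSG00000116717, chromosome 1, 67685061 to 67688338, plus strand, coordinates of the deposited hg38 tables) had the lowest p of the targets in each set. In the first set it had 159, 204 and 154 CPM in EV replicates 1 to 3 and 97.4, 79.9 and 94.7 CPM in OE replicates 1 to 3, without overlap. The second set gave it 66.0 and 78.2 CPM in EV replicates 4 and 5 and 82.1 and 100.1 CPM in OE replicates 4 and 5, again without overlap but with OE above EV. The EV libraries of the first set stood apart from the other 7, which lay between 66.0 and 100.1 CPM. The log2 change was -0.93 (SE 0.13) in the first set (edgeR adjusted p = 0.0712) and 0.34 (SE 0.13) in the second (adjusted p = 1). With the replicate number as a block, the second-set change was called by edgeR (0.34, adjusted p = 6.16e-04) and the first-set change was not (adjusted p = 0.159). With 2 libraries per group, the blocked second-set fit leaves little spread of the gene itself. Its p-value therefore leans on the spread shared over genes. The difference between these changes was 1.26 (SE 0.21) with an adjusted p of 0.211, and it was called without EV replicate 2. The change over both sets, -0.43 (SE 0.19), joins these opposite signs.

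BTG2 (ENSG00000159388, chromosome 1, 203305491 to 203309602, plus strand) had 57.8, 50.4 and 46.3 CPM in EV replicates 1 to 3 and 30.9, 31.6 and 30.2 CPM in OE replicates 1 to 3. Second-set levels were 15.6 and 29.9 CPM in EV replicates 4 and 5 and 15.9 and 37.2 CPM in OE replicates 4 and 5. The OE libraries lay below EV without overlap in the first set, and in the second both replicates 5 were above both replicates 4. Its log2 change was -0.75 (SE 0.11) in the first set (adjusted p = 0.0838), 0.23 (SE 0.43) in the second, and the difference 0.96 (SE 0.42, adjusted p = 1). From replicate 4 to 5 its log2 change was 1.11 (SE 0.25), the highest of the targets' changes there, with an adjusted p of 0.0704. PLK2 had 469.5, 493 and 446 CPM in EV replicates 1 to 3 and 391.8, 393 and 382 CPM in OE replicates 1 to 3. For the second set the values were 487 and 468 CPM in EV replicates 4 and 5 and 487 and 486 CPM in OE replicates 4 and 5, within the range of the EV libraries of the first set. The first-set change of PLK2 was -0.28 (SE 0.08) and the second-set change 0.03 (SE 0.07). PLK3, a stress-activated polo-like kinase, was called lower in the second set (-0.55, SE 0.13, adjusted p = 0.0110), though not without EV replicate 4 (0.0554), and cyclin G1 (CCNG1) had -0.02 (SE 0.11) there.

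**Figure D4:**
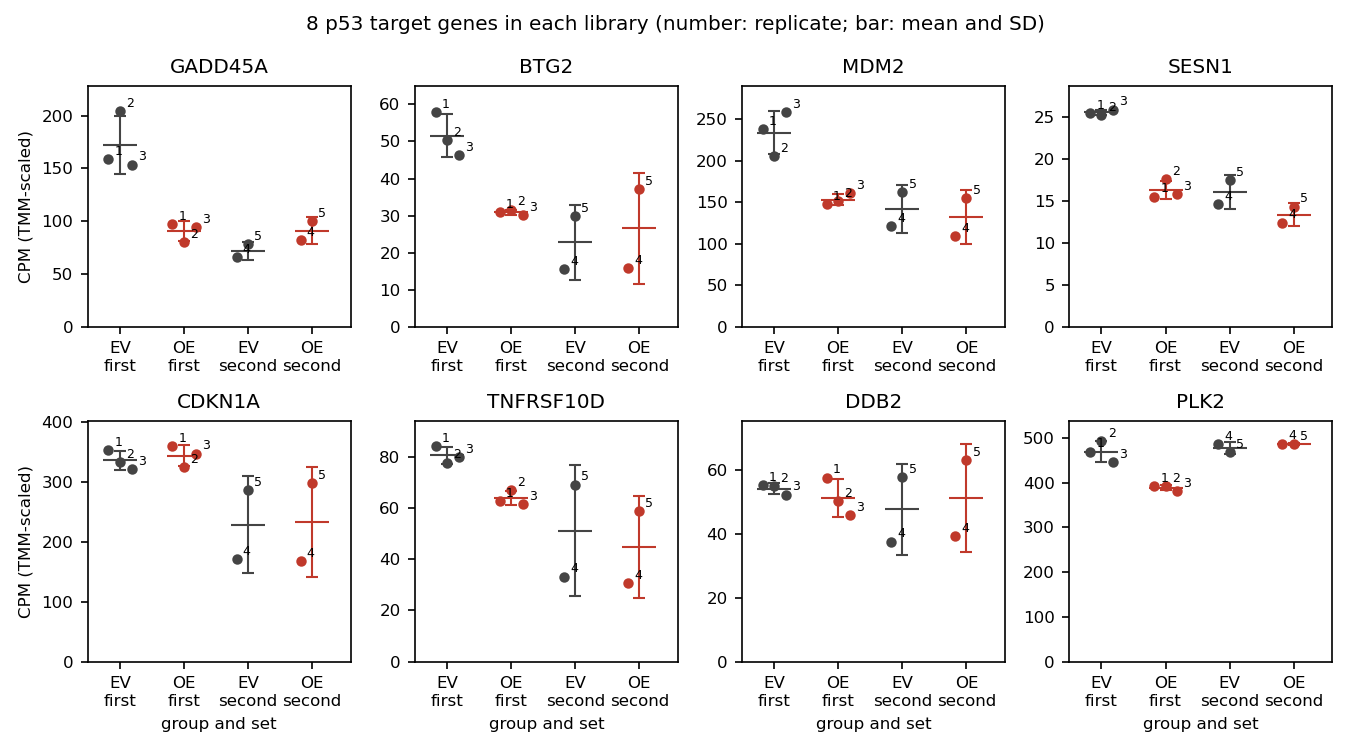
CPM of 8 p53 target genes in each library (points numbered by replicate, EV grey and OE red, first and second set), with the mean and SD of each group as bars. GADD45A, BTG2, MDM2 and SESN1 have their highest levels in the 3 EV libraries of the first set, and CDKN1A, TNFRSF10D and DDB2 are lowest in both replicates 4.

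Of the 4 targets that feed back on p53, MDM2 (ENSG00000135679, chromosome 12, 68808176 to 68850686, plus strand) had 238, 206 and 258 CPM in EV replicates 1 to 3 and 147, 151 and 161 CPM in OE replicates 1 to 3. In the second set it had 121 and 162 CPM in EV replicates 4 and 5 and 109 and 155 CPM in OE replicates 4 and 5. OE lay below EV without overlap in the first set, and the groups overlapped in the second. The log2 change was -0.41 (SE 0.12) over both sets (adjusted p = 0.847), -0.62 (SE 0.10) in the first (adjusted p = 0.160) and -0.10 (SE 0.19) in the second. MDM2 was called lower in the second set (-0.47, SE 0.13, adjusted p = 0.0223), but not without EV replicate 4 (0.101), EV replicate 5 (0.0551) or OE replicate 4 (0.0728). PPM1D, the phosphatase Wip1 that removes activating phosphates from p53 and its kinases, had 27.3, 23.9 and 28.9 CPM in EV replicates 1 to 3 and 18.3, 21.3 and 20.9 CPM in OE replicates 1 to 3. Its levels in the second set were 15.6 and 21.5 CPM in EV replicates 4 and 5 and 18.6 and 22.7 CPM in OE replicates 4 and 5. Its OE levels lay below EV in the first set and overlapped EV in the second, with log2 changes of -0.42 (SE 0.12) and 0.16 (SE 0.19). The second-set change turned to -0.05 without EV replicate 4.

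TP53INP1, a p53-induced nuclear protein that promotes p53 phosphorylation and autophagy, had the lowest p of the targets between the sets. It had 55.4, 40.0 and 58.1 CPM in EV replicates 1 to 3 and 43.7, 50.02 and 47.5 CPM in OE replicates 1 to 3. The second set gave it 24.0 and 30.5 CPM in EV replicates 4 and 5 and 21.4 and 32.6 CPM in OE replicates 4 and 5. All 4 libraries of the second set lay below all 6 of the first, and EV and OE overlapped in both sets. The change between sets was -0.86 (SE 0.13), adjusted p = 8.33e-04, and was called with each library left out in turn. FBXO22, a ubiquitin ligase subunit, had 68.5, 77.5 and 64.8 CPM in EV replicates 1 to 3 and 60.7, 58.4 and 54.1 CPM in OE replicates 1 to 3. Second-set levels were 56.5 and 61.3 CPM in EV replicates 4 and 5 and 50.9 and 63.6 CPM in OE replicates 4 and 5, so that the groups were apart in the first set and overlapped in the second. Its log2 change was -0.29 (SE 0.10) in the first set.

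Among the 5 targets of the intrinsic apoptosis pathway, none was called with OE in either set by edgeR, and 2 were lower at an unadjusted p under 0.05 in the first set, AEN and TRIAP1, beside 4.47% of all genes. AEN had 177, 158 and 172 CPM in EV replicates 1 to 3 and 148, 141 and 149.6 CPM in OE replicates 1 to 3. For the second set the values were 135 and 164 CPM in EV replicates 4 and 5 and 148 and 169 CPM in OE replicates 4 and 5. The OE libraries lay below EV in the first set, where the log2 change was -0.22 (SE 0.09), and overlapped EV in the second, where it was 0.09 (SE 0.12). BBC3, which encodes the BH3-only protein PUMA, had 17.7, 17.2 and 16.2 CPM in EV replicates 1 to 3 and 18.6, 13.8 and 16.8 CPM in OE replicates 1 to 3. In the second set it had 9.62 and 14.2 CPM in EV replicates 4 and 5 and 11.5 and 19.02 CPM in OE replicates 4 and 5. Its groups overlapped in both sets, and the second-set change of 0.36 (SE 0.29) turned to -0.05 without OE replicate 5. PHLDA3 had 193, 207 and 162 CPM in EV replicates 1 to 3 and 205, 171 and 189 CPM in OE replicates 1 to 3. Its levels in the second set were 126 and 182 CPM in EV replicates 4 and 5 and 136 and 214 CPM in OE replicates 4 and 5. Replicate 5 lay above replicate 4 with both vectors, with a log2 change of 0.59 (SE 0.13, adjusted p = 0.0629). Its second-set change with OE, 0.19 (SE 0.24), turned to -0.06 without EV replicate 4 and -0.18 without OE replicate 5. BAX had a log2 change with OE of 0.04 in the first and 0.05 in the second set, with a 95% interval over both sets of -0.20 to 0.30. TRIAP1 was called lower in the second set (-0.46, SE 0.13, adjusted p = 0.0289) and in 6 of 10 fits that left out 1 library. The call was lost when EV replicate 4 or 5 or OE replicate 1 or 4 was left out.

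The 4 targets grouped as death receptors and related receptors were FAS, TNFRSF10B, TNFRSF10D and EDA2R, a receptor for ectodysplasin A2. Of these, 3 were called lower in the second set, beside 9.17% of all genes: FAS, TNFRSF10D and EDA2R. FAS, the receptor of Fas ligand, had 58.4, 61.3 and 50.6 CPM in EV replicates 1 to 3 and 39.2, 42.2 and 43.4 CPM in OE replicates 1 to 3. The second set gave it 34.7 and 34.9 CPM in EV replicates 4 and 5 and 37.8 and 40.7 CPM in OE replicates 4 and 5. OE lay below EV in the first set and above EV in the second, without overlap in either. The log2 change was -0.46 (SE 0.10) in the first set (adjusted p = 0.324), 0.18 (SE 0.11) in the second (adjusted p = 1), and the difference 0.62 (SE 0.16, adjusted p = 1). Between sets FAS changed by -0.39 (SE 0.11, adjusted p = 0.0287), a call lost without EV replicate 1 (0.0554), EV replicate 4 (0.128) or EV replicate 5 (0.110). That fit has 1 set term for both vectors. OE levels of FAS in the sets overlapped (39.2 to 43.4 and 37.8 to 40.7 CPM), and EV levels did not. The ACTA2 gene overlaps FAS on the other strand. TNFRSF10D, a decoy receptor for TRAIL, had 84.2, 77.8 and 79.9 CPM in EV replicates 1 to 3 and 62.9, 67.1 and 61.7 CPM in OE replicates 1 to 3. Second-set levels were 33.3 and 69.2 CPM in EV replicates 4 and 5 and 30.6 and 58.8 CPM in OE replicates 4 and 5. OE lay below EV in the first set, and both replicates 4 stood below the other 8 libraries. Replicate 5 was above replicate 4 by 1.0 (SE 0.11, adjusted p = 7.69e-04), a call kept with each library left out in turn. Its call between sets (-0.59, SE 0.18, adjusted p = 0.0398) stood in only 3 of those 10 fits, without EV replicate 2, EV replicate 5 or OE replicate 5. EDA2R changed between sets by -0.62 (SE 0.16, adjusted p = 0.0185), and was not called without EV replicate 4 (0.0892) or OE replicate 4 (0.0581). TNFRSF10B, the receptor that transmits the TRAIL signal, was neither called with OE (0.08, SE 0.07) nor between sets (-0.11, SE 0.07) or replicates (0.15, SE 0.11).

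The targets of DNA repair and nucleotide supply were RRM2B, DDB2, XPC and POLH. RRM2B, the p53-inducible subunit of ribonucleotide reductase, had 144, 132 and 140.5 CPM in EV replicates 1 to 3 and 112, 123 and 119 CPM in OE replicates 1 to 3. For the second set the values were 93.4 and 109 CPM in EV replicates 4 and 5 and 89.0 and 106 CPM in OE replicates 4 and 5. The OE libraries lay below EV in the first set, with a log2 change of -0.24 (SE 0.09), overlapped EV in the second, and all second-set libraries lay below the first set (-0.36, SE 0.08, adjusted p = 0.00621). DDB2, a damage-recognition factor of nucleotide excision repair, had 55.5, 55.1 and 52.4 CPM in EV replicates 1 to 3 and 57.8, 50.4 and 46.1 CPM in OE replicates 1 to 3. In the second set it had 37.7 and 57.8 CPM in EV replicates 4 and 5 and 39.4 and 63.3 CPM in OE replicates 4 and 5. It was called higher in replicate 5 than in replicate 4 (0.65, SE 0.12, adjusted p = 0.0287), but its adjusted p was 0.0627 to 0.386 without EV replicate 4 or 5 or OE replicate 2, 4 or 5. Between sets DDB2 had -0.09 (SE 0.14) and with OE -0.01 (SE 0.13). XPC, a damage sensor of the same pathway, had -0.06 (SE 0.09) between sets and -0.05 (SE 0.15) between replicates. The translesion polymerase POLH had 0.05 (SE 0.12) and 0.31 (SE 0.18).

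Of the 7 tested targets in metabolism, redox control and autophagy, 5 were called lower in the second set, beside 9.17% of all genes: SESN1, SESN2, FDXR, TP53I3 and DRAM1. SESN1 (ENSG00000080546, chromosome 6, 108986437 to 109094819, minus strand), a leucine-responsive inhibitor of mTORC1 signalling, had 25.5, 25.2 and 25.9 CPM in EV replicates 1 to 3 and 15.5, 17.5 and 15.8 CPM in OE replicates 1 to 3. Its levels in the second set were 14.6 and 17.5 CPM in EV replicates 4 and 5 and 12.4 and 14.3 CPM in OE replicates 4 and 5. OE lay below EV without overlap in both sets. It was the target with the lowest p over both sets, with a log2 change of -0.50 (SE 0.10) and an adjusted p of 0.847 by edgeR. Within the first set its change was -0.66 (SE 0.11), and within the second -0.26 (SE 0.17). Over both sets it was -0.58 to -0.46 with each library left out in turn. SESN2, its stress-induced relative, had 0.0015 (SE 0.07) with OE, with a 95% interval of -0.14 to 0.15, and -0.26 (SE 0.07) between sets (adjusted p = 0.0213), not called without EV replicate 4 (0.0984) or OE replicate 4 (0.0705).

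DRAM1, a lysosomal membrane protein of autophagy, had 54.8, 54.2 and 56.4 CPM in EV replicates 1 to 3 and 47.8, 52.2 and 50.8 CPM in OE replicates 1 to 3. The second set gave it 37.7 and 41.6 CPM in EV replicates 4 and 5 and 38.9 and 38.9 CPM in OE replicates 4 and 5. OE lay below EV in the first set and overlapped EV in the second. All second-set libraries lay below the first set, and the change of -0.42 (SE 0.07, adjusted p = 0.00122) was called with each library left out in turn. TP53I3, a quinone oxidoreductase, had 30.9, 28.5 and 28.2 CPM in EV replicates 1 to 3 and 33.96, 27.8 and 28.99 CPM in OE replicates 1 to 3. Second-set levels were 25.1 and 23.2 CPM in EV replicates 4 and 5 and 23.1 and 21.7 CPM in OE replicates 4 and 5. Its change between sets, -0.35 (SE 0.09, adjusted p = 0.0146), was also called in all 10 such fits, while replicates 5 and 4 differed by -0.10 (SE 0.13). FDXR changed by -0.59 (SE 0.16) between sets (adjusted p = 0.0214), and was not called without EV replicate 4 (0.0869) or OE replicate 4 (0.0722). TIGAR had 2.53, 1.10 and 3.15 CPM in EV replicates 1 to 3 and 1.99, 1.61 and 0.970 CPM in OE replicates 1 to 3. For the second set the values were 1.03 and 0.894 CPM in EV replicates 4 and 5 and 1.19 and 1.45 CPM in OE replicates 4 and 5. At these low levels no OE change of TIGAR could be told from the spread of the libraries. Its first-set change was -0.58 (SE 0.43). Its second-set change was 0.45 (SE 0.45). ACER2 had -0.35 (SE 0.30) in the first and 0.18 (SE 0.30) in the second set.

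GDF15 had 237, 285 and 221 CPM in EV replicates 1 to 3 and 248, 213 and 239 CPM in OE replicates 1 to 3. In the second set it had 117 and 162 CPM in EV replicates 4 and 5 and 121 and 182 CPM in OE replicates 4 and 5. The vectors overlapped in both sets, and all second-set libraries lay below the first set. The change between sets was -0.72 (SE 0.13, adjusted p = 0.00170), called with each library left out in turn, and the OE change over both sets was -0.01 with a 95% interval of -0.26 to 0.25. ZMAT3 had 71.2, 55.3 and 76.1 CPM in EV replicates 1 to 3 and 45.9, 46.6 and 49.4 CPM in OE replicates 1 to 3. Its levels in the second set were 35.0 and 54.3 CPM in EV replicates 4 and 5 and 32.3 and 52.6 CPM in OE replicates 4 and 5. The OE libraries lay below EV in the first set (-0.53, SE 0.13) and overlapped EV in the second (-0.07, SE 0.27), and from replicate 4 to 5 its log2 change was 0.67 (SE 0.17, adjusted p = 0.129). SUSD6, a membrane protein, had -0.01 (SE 0.13) with OE and -0.20 (SE 0.14) between sets.

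Genes that regulate p53 were measured beside its targets. MDM4, the MDM2 relative that masks p53, had -0.10 (SE 0.09) with OE and CDKN2A, whose product ARF restrains MDM2, had 0.16 (SE 0.11). Of 22 tested genes in the list of p53 and its regulators, 0 were called with OE over both sets, with a median of -0.02 and 2 at an unadjusted p under 0.05, both lower, beside 2.53% of all genes lower and 3.18% higher. The lowest p-values were those of the deacetylase SIRT1 with -0.19 (SE 0.08), the ubiquitin ligase RCHY1 with -0.16 (SE 0.07), PPP1R13B, which encodes the p53 cofactor ASPP1, with 0.21 (SE 0.11), and the checkpoint kinase CHEK1 with 0.12 (SE 0.06). Between sets PPP1R13L, which encodes an inhibitory relative of ASPP1, was called higher (0.27, SE 0.07, adjusted p = 0.0160), beside 9.27% of all genes. SIRT1 was called lower (-0.28, SE 0.08, adjusted p = 0.0333), beside 9.17%. The list had a median of 0.03 there, against -0.0012 over all genes.

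A further list of 43 known p53 targets, 42 of them tested, was compared in the same way. In the first set 1 was called lower, beside 0.0349% of all genes: ATF3, a stress-induced transcription factor. It had 29.5, 33.4 and 30.8 CPM in EV replicates 1 to 3 and 10.1, 10.7 and 12.8 CPM in OE replicates 1 to 3. Second-set levels were 8.65 and 9.90 CPM in EV replicates 4 and 5 and 15.3 and 11.7 CPM in OE replicates 4 and 5. OE lay below EV in the first set (-1.49, SE 0.13, adjusted p = 0.0102) and above EV in the second, without overlap in either. The difference of the OE change between sets was called for ATF3 (2.02, SE 0.23, adjusted p = 0.0146), and for no other gene tested. Neither call of ATF3 was kept in every fit that left out 1 library. Without EV replicate 1, edgeR called 0 genes in the first set. Over both sets 0 of 42 were called, with a median of -0.04, and the lowest p-values were those of ANKRA2 (-0.60, SE 0.11), DCP1B, a decapping factor (-0.28, SE 0.10), ATF3 (-0.72, SE 0.29) and ASCC3, a helicase (-0.20, SE 0.09). Between sets 12 were called lower, beside 9.17% of all genes, and 4 higher, beside 9.27%, with a median of -0.18. Between replicates 5 and 4, 1 was called higher, beside 0.281%, and 2 lower, beside 0.471%, with a median of 0.04, beside 0.31 for the 33 targets.

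Genes repressed through p21 and DREAM, of which 24 of 25 were tested, had small changes with OE. Over both sets 0 were called, 18 changes were above 0 and the median was 0.03. The lowest p-values were those of the transcription factor MYBL2 with 0.15 (SE 0.07), the replicative helicase subunit MCM5 with 0.13 (SE 0.06), CHEK1, and CDC20, an activator of the anaphase-promoting complex, with 0.08 (SE 0.06). Between sets 4 of the 24 were called higher (E2F1, MYBL2, MCM5 and CDC6), beside 9.27% of all genes, and 0 lower, beside 9.17%, with a median of 0.04. Between replicates 5 and 4, 0 were called, 16 changes were above 0 and the median was 0.09.

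**Figure D5:**
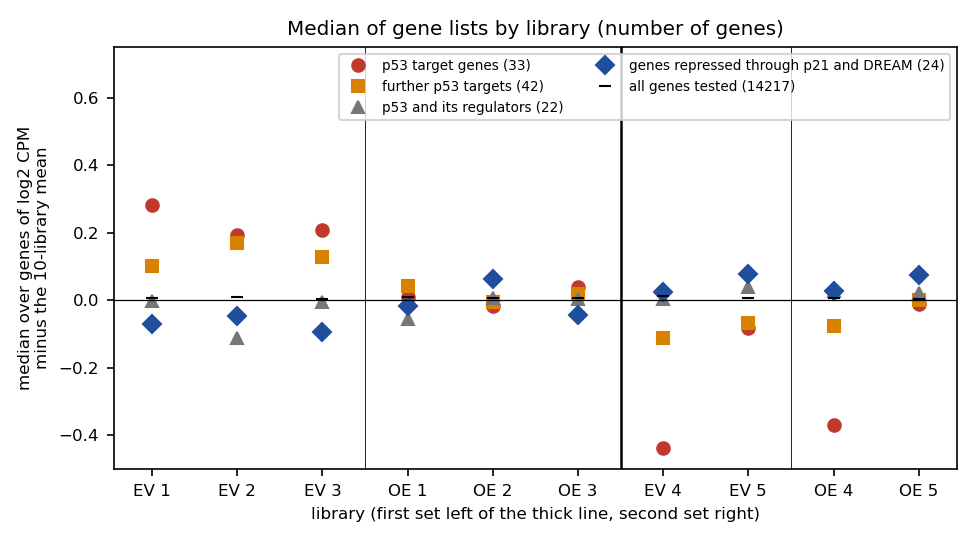
Median over the genes of each list of the deviation of log2 CPM from the 10-library mean (vertical axis), in each library (horizontal axis, the first set left of the thick line). The 33 p53 target genes lie between 0.19 and 0.28 in the EV libraries of the first set and at -0.44 and -0.37 in both replicates 4, while the 22 genes of p53 and its regulators stay between -0.11 and 0.04.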

How the data were processed

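RNA of 5 EV and 5 OE libraries of TPC-1 cells was extracted with TRIzol, treated with DNase and sequenced in paired ends, per the labels' protocols. The submitters' processing notes list build hg38 and the tools HISAT2 2.0.5, fastp, CASAVA 1.8, DESeq2 1.20.0 and featureCounts 1.5.0-p3. Not given in the sources used here were their role, the annotation release and strandedness. The authors deposited raw counts per gene and library, with a gene length in bases, per the file headers. The 14 deposited per-library columns of normalized values were not used.

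Counts were fitted in edgeR 4.0.16 (R 4.3.3) by the quasi-likelihood test, with TMM scaling, filterByExpr by group (minimum count 10) and Benjamini-Hochberg adjustment over all genes tested, at an adjusted p under 0.05. The SE is the one implied by the test, and intervals are at 95%. Fits of both sets had set and vector as terms, the interaction was added to them, and each set was fitted alone. Replicate 5 was compared with replicate 4 in a fit of all 10 libraries. Positive changes are OE over EV, second over first set, and replicate 5 over 4. Simulated counts for the comparison of both sets held 14050 genes, 200 of them changed. The test recovered 99% of genes changed by a log2 of 1 and 100% of those changed by 2, and 4.78% of calls were false. The changed genes were drawn from those above a minimum mean level, with no difference between sets and no outlying library simulated. Changes as small as those of the targets over both sets, -0.50 to 0.11, were not simulated. Alternatives were DESeq2 1.42.0, limma-voom (limma 3.58.1), RLE scaling, no filter, a replicate block, and leaving out each library. Depth was 15761474 to 18066559 counts per library. Any 2 libraries of a group differed beyond sampling noise, EV replicate 2 the most (chi-square for each degree of freedom of 38.2 to 53.1 against the other EV libraries, and of 4.30 to 29.8 for other pairs). Library levels are given for the 8 targets of lowest p in each comparison of vectors and the 4 of lowest p between sets and between replicates, and the other targets by their changes. From the other p53 lists the 4 genes of lowest p over both sets are named, with MDM4 and CDKN2A, and 1 gene that this rule also names is not reported here. Genes named beyond these rules, such as ATF3 by set, were chosen after their values were seen. The target genes and lists were chosen with earlier results of these data known.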

Additional observations from a re-analysis of the deposited data

Results flagged for a closer look

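In the 5 OE or 5 EV libraries of a group, 1 library stood apart from the other 4 for 4 targets, by a gap of over 0.71 of the group's range, among 66 groups examined. Chance gives such a gap in about 1 of 20 groups. BAX was at 116.93 CPM in OE replicate 4 and at 163 to 181 CPM in the other OE libraries. MDM2 was at 108.74 CPM in OE replicate 4, against 147 to 161 CPM. TNFRSF10D was at 30.627 CPM there, against 58.8 to 67.1 CPM. DDB2 was at 37.682 CPM in EV replicate 4, against 52.4 to 57.8 CPM in the other EV libraries.

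For GADD45A and FAS, all OE libraries lay below all EV libraries in the first set and above them in the second. Of all genes, 7.85% had OE below EV without overlap in the first set, and 12.3% had OE above EV in the second. The share of all genes with both was not computed, so this pattern cannot be called particular to the targets. The difference of the OE change between sets was 1.26 for GADD45A (adjusted p = 0.211) and 0.62 for FAS (adjusted p = 1) by edgeR's interaction test, which called neither.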

How the results depend on the processing

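For OE against EV over both sets, where 0 targets and 0 genes were called, DESeq2 called 1 and 6, and the fit without the low-count filter 2 and 23. In the first set (0 targets, 5 genes), DESeq2 called 5 and 76, the fit without the filter 5 and 90, and the replicate block left 1 gene. Leaving out 1 library gave 0 to 14 targets and 0 to 1578 genes, the highest counts without EV replicate 2. In the second set (0 targets, 0 genes), DESeq2 called 1 gene, the fit without the filter 12, and the fits without 1 library 0 to 1. For the interaction (0 targets, 1 gene), DESeq2 called 1 and 9, the fit without the filter 2 and 28, the replicate block 3 genes, and the fits without 1 library 0 to 1 targets and 0 to 7 genes. Between sets (15 targets, 2621 genes), leaving out 1 library gave 6 to 20 targets and 1312 to 3850 genes, the lowest without EV replicate 4. Between replicates 5 and 4 (3 targets, 107 genes), DESeq2 called 10 and 237, the fit without the filter 11 and 238, and the fits without 1 library 1 to 13 and 18 to 560. With 1 library left out, second-set changes ranged from -0.047 to 0.68 for BBC3, -0.18 to 0.47 for PHLDA3 and -0.054 to 0.40 for PPM1D, and a lone library there was assumed to vary like the other group. RLE scaling and limma-voom changed no count of targets by over 1.5 times. The cause of these differences was not tested. Same-numbered EV and OE libraries did not deviate together in the first set (r = -0.11, 0.0035 and 0.16 across genes), so the numbers were not treated as pairs there. In the second set same-numbered libraries had r = 0.314. With 2 libraries per group, differently numbered libraries have the same r with the sign reversed by construction. The labels name nothing that a number marks, and 2 pairs were too few to decide. With the replicate block, 71 genes and 1 target, GADD45A (0.34, adjusted p = 6.16e-04), were called in the second set, and the counts of targets in the other comparisons of vectors and of replicates 5 and 4 did not change. No blocked fit of set was possible, since sets share no replicate number.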
